A study of Homo sapiens with 6 samples.

Results

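The human genome has 4 tropomyosin genes, TPM1, TPM2, TPM3 and TPM4, and all 4 were found by their symbol among the 27830 genes of the deposited expression table. They were measured by RNA sequencing in LX-2, an established line of human hepatic stellate cells, the cell type that turns into a collagen-producing myofibroblast in liver fibrosis. The comparison set 3 samples given 10 ng/ml of transforming growth factor beta 1 (TGF-β1) for 24 h against 3 untreated control samples. Treated cells were kept without serum, after growth in 10% fetal bovine serum, and the labels do not say what medium the controls had in those 24 h. An effect of TGF-β1 and one of serum removal cannot be told apart if the media differed. Nothing says whether samples of a group came from separate cultures. The p-values below therefore rest on sample-to-sample spread that could be technical only. In bulk RNA, a change in the mix of cells and a change in RNA per cell cannot be told apart.

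Tropomyosins are coiled-coil dimers that lie end to end along actin filaments. They set which other proteins reach the filament: in striated muscle they hold the troponin complex, and in other cells they stabilise stress fibres, recruit myosin II and limit severing by cofilin. Each gene gives several proteins through alternative starts and alternative exons, and the longer products are typical of stress fibres in spread fibroblasts. TGF-β1 is known to induce stress fibres in mesenchymal cells.

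Library totals ran from 13866957 to 17694675 counts. The lowest tropomyosin count in any library was 3477, for TPM2, so counting error alone was at most 1.7% of a value. Of 16 stellate cell markers 15 were in the table. Their summed level, in CPM (read counts scaled to a common library size), was 2866 to 2941 in controls and 3008 to 3454 with TGF-β1. The sum is mainly set by VIM, at means of 1407 and 1232 CPM, and COL1A1, at 1319 and 1780 CPM. PDGFRA, DES, LRAT and DCN were each under 1 CPM on average in both groups. PDGFRB had 660 to 898 counts per library and VIM 18406 to 23570, whereas LRAT had 0 to 2 and DES 1 to 5. The 8 vascular smooth muscle markers summed to 248 to 281 CPM in controls and 234 to 290 CPM with TGF-β1, with MYH11 at 7 to 45 counts and LMOD1 at 1 to 16. Of 10 striated muscle markers 7 were in the table, at a sum of 11.2 to 14.6 CPM in controls and 13.0 to 26.7 CPM with TGF-β1. None of these muscle markers was called. The epithelial list (6 of 7 markers in the table) summed to 551 to 672 CPM in controls and 427 to 599 CPM with TGF-β1. The endothelial list (8 markers) summed to 443 to 454 and 435 to 453 CPM, and no marker was called in either list. The largest terms in controls were KRT8 and KRT18, at 376 and 220 CPM, and TIE1 and FLT1, at 326 and 116 CPM. EPCAM had 0 to 1 counts per library, KRT19 0 to 2, CDH5 0 to 4 and CLDN5 1 to 6. Of the stellate markers 1 was called, against 0.366% of all genes tested. This was COL3A1, a fibrillar collagen gene, at 94.3 and 157 CPM (log2 difference 0.71, edgeR adjusted p = 0.0350). COL1A2, also in the stellate list, had only 29 to 48 counts per library, with means of 2.20 CPM in controls and 2.91 CPM with TGF-β1. In the same order RELN was at 1.70 and 1.53 CPM and GFAP at 1.94 and 1.78 CPM.

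The first coding bases are shown because a count per gene pools all products of that gene, and for TPM1, TPM3 and TPM4 these include proteins with different starts. Sequences are from transcripts of GENCODE release 29 in the consensus coding sequence (CCDS) set. For TPM1, 6 CCDS transcripts shared the start of the long form of 284 residues and 4 shared the start of the short form of 245 to 248 residues. The first 60 coding bases follow, 5′ to 3′, and capitals mark bases that differ from TPM1 in the same form.
TPM1 long: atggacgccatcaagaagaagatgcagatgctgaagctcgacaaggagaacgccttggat
TPM2 long: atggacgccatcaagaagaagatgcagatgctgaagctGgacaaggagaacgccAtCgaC
TPM4 long: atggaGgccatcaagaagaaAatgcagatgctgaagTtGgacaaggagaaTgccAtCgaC
TPM1 short: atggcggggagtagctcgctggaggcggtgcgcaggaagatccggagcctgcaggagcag
TPM3 short: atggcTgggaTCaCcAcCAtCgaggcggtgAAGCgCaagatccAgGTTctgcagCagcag
TPM4 short: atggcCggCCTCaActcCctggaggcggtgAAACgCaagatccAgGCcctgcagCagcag
The long starts were close to each other, with 4 differences from TPM1 in TPM2 and 8 in TPM4. The short starts were farther apart, with 18 differences from TPM1 in TPM3 and 16 in TPM4. All 5 CCDS transcripts of TPM2 had the long form. The long form of TPM3, of 285 residues, opens with another codon and is not aligned here. Over the longest coding sequence of each gene, identity between 2 tropomyosin genes was 76.1% to 79.8%. The longest run of identical bases between transcripts of 2 of the genes was 40, between TPM1 and TPM2, and the shortest such maximum was 21, between TPM1 and TPM3. No read length was stated, and how many reads could come from more than 1 member was not tested.

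TPM1 (ENSG00000140416) encodes alpha-tropomyosin, which is made in nearly every cell type and is the main form of cardiac muscle. It lies on the plus strand of chromosome 15 from 63042632 to 63071915 of GRCh38. Control samples 1 to 3 had 345, 342 and 352 CPM, and TGF-β1 samples 1 to 3 had 576, 747 and 533 CPM. The groups did not overlap. The lowest TGF-β1 sample was above the highest control, and the spread among TGF-β1 samples was far wider than among controls. Means were 346 ± 4.93 CPM in controls and 619 ± 113 CPM with TGF-β1 (SD, n = 3). TPM1 rose by 1.79-fold (95% interval 1.44 to 2.21), or by 0.84 ± 0.14 (SE) in log2 units (edgeR adjusted p = 0.0314). It was the only member of the 4 called at an adjusted p under 0.05. Among all 14463 genes tested, 0.366% were called, 0.187% as higher. Groups did not overlap for 2 of the 4 members, TPM1 and TPM3, against 17.1% of all genes. TGF-β1 samples all lay above the controls for 7.93% of all genes.

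The call for TPM1 depended on the samples, while its direction and approximate size did not. With 1 sample left out the log2 difference was 0.68 to 0.93. It was not called without control replicate 1 (edgeR adjusted p = 0.199), control replicate 2 (0.0994), control replicate 3 (0.148) or TGF-β1 replicate 2 (0.246), the highest sample. Without TGF-β1 replicate 2 only 4 genes of the whole table were called, 0.0271% of those tested. A trend with GC content also set libraries apart. The 234 tested genes of at most 35% GC had a median log2 deviation from their own means of -0.42 to -0.08 in controls and -0.18 to 0.68 with TGF-β1. The longest TPM1 transcript has 45.9% GC. The 2225 genes within 2 points of it had medians of -0.10 to 0.06 in controls and -0.03 to 0.13 with TGF-β1. Once this trend was taken out, TPM1 differed by 0.77 in log2 units (edgeR adjusted p = 0.00428), and 3.34% of all genes were called. On that scale it was also called with any 1 sample left out (0.59 to 0.88, edgeR adjusted p up to 0.0492).

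**Figure D1:**
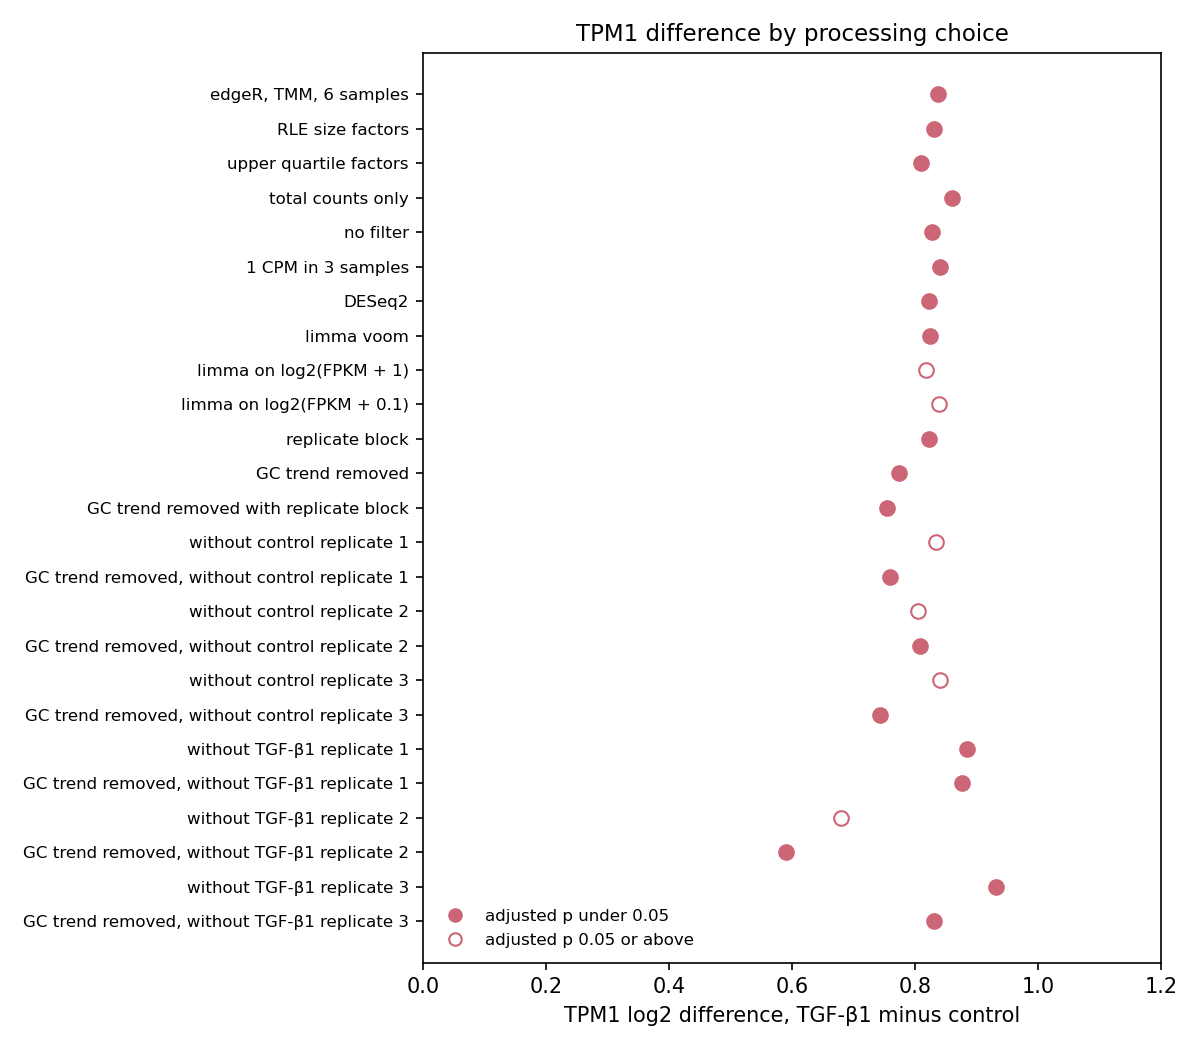
Log2 difference of TPM1 between TGF-β1 and control samples (horizontal axis) under each processing choice (vertical axis), with filled points for an edgeR, limma or DESeq2 adjusted p under 0.05 and open points otherwise. All points lie between 0.59 and 0.93, and 18 of 24 alternatives gave a call, among them every fit with the GC trend removed.

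A gene on the opposite strand bears on the TPM1 count. TPM1-AS, an antisense RNA gene, lies inside TPM1, and 61.7% of its exon bases are also TPM1 exon bases. Libraries of the kit named in the labels carry no strand information. TPM1-AS had 0, 1 and 1 counts in controls 1 to 3 and 12, 5 and 8 with TGF-β1, with no overlap between the groups. Its summed 2 and 25 counts give a ratio of 12.9 per total counts, with an exact 95% interval of 3.22 to 112 that covers counting error only. TPM1-AS was too low for the filter on low counts. Without that filter it was called (log2 difference 3.44, edgeR adjusted p = 0.0154), as were 4.46% of all genes in that fit. These counts equal 0.0121% and 0.0853% of the TPM1 count in the same samples, and TPM1 itself rose. TPM1-AS lies wholly inside TPM1, so without strand its counts cannot be told apart from reads of spliced or unspliced TPM1 RNA. In the other direction, 21.4% of the exon bases of TPM1 overlap exons of other genes, 16.1% through TPM1-AS and 5.37% through another antisense gene, AC079328.2.

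TPM2 (ENSG00000198467), beta-tropomyosin, is a major form of skeletal and smooth muscle and is also made in fibroblasts. It lies on the minus strand of chromosome 9 from 35681992 to 35690121. Control samples 1 to 3 had 246, 311 and 266 CPM, and TGF-β1 samples 1 to 3 had 254, 366 and 336 CPM. The groups overlapped, with TGF-β1 sample 1 below control samples 2 and 3. TPM2 differed by 0.22 ± 0.16 (SE) in log2 units (edgeR adjusted p = 0.536), and the 95% interval reaches from 0.918-fold to 1.47-fold. TPM2 was read in 18 alternatives, none of which called it, and its log2 difference ranged from 0.10 to 0.35 over them. With the GC trend removed it was 0.31 ± 0.11 (SE, edgeR adjusted p = 0.146). Fits with both the GC trend removed and 1 sample left out were not read for TPM2.

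TPM3 (ENSG00000143549) encodes gamma-tropomyosin, found in slow skeletal muscle and, as short forms, in nearly all other cells. It lies on the minus strand of chromosome 1 from 154155304 to 154194648. Control samples 1 to 3 had 577, 570 and 561 CPM, and TGF-β1 samples 1 to 3 had 498, 541 and 541 CPM. Every TGF-β1 sample was thus below every control in CPM, as for 9.12% of all genes tested. The size of this, -0.11 ± 0.11 (SE) in log2 units, did not pass the test (edgeR adjusted p = 0.665, 95% interval 0.781-fold to 1.10-fold). With the GC trend removed it was -0.22 ± 0.11 (SE, edgeR adjusted p = 0.294). Over 18 alternatives, none of which called TPM3, the log2 difference ranged from -0.23 to -0.08. In the deposited FPKM values (CPM per kilobase of gene length, without the library scaling factors) the groups overlapped, at 36.5 to 38.1 and 33.2 to 36.6.

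TPM3 has processed copies elsewhere in the genome, and 2 of them were in the table. TPM3P9, a transcribed processed pseudogene on chromosome 19, shares a run of 50 identical bases with TPM3 transcripts. It had 144, 187 and 178 counts in controls 1 to 3 and 192, 166 and 122 with TGF-β1, which is 1.66% to 2.34% of the TPM3 count per library. Its log2 difference was -0.07 ± 0.18 (SE; edgeR adjusted p = 0.888). TPM3P6 had 0 to 1 counts per library. How reads shared by TPM3 and its copies were assigned is not stated, so their counts are uncertain.

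TPM4 (ENSG00000167460) encodes delta-tropomyosin, a form of non-muscle cells and platelets, and had the highest counts of the family. It lies on the plus strand of chromosome 19 from 16067021 to 16103005, and 9.6% of its exon bases overlap AC008894.3 on the opposite strand. Control samples 1 to 3 had 979, 917 and 1072 CPM, and TGF-β1 samples 1 to 3 had 1064, 1047 and 999.9 CPM. All 3 TGF-β1 samples lay inside the range of the controls. TPM4 differed by 0.07 ± 0.12 (SE) in log2 units (edgeR adjusted p = 0.808), with a 95% interval of 0.879-fold to 1.25-fold. Without control replicate 2 this became -0.01.

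Responses of the genes were compared through the log2 ratio of the FPKM of 2 members within each sample, over all 6 pairs. The ratio of TPM1 to TPM3 was -0.60 to -0.53 in controls and 0.12 to 0.60 with TGF-β1, a difference of 0.94. The ratio of TPM1 to TPM4 differed by 0.75 and that of TPM1 to TPM2 by 0.62, again with no overlap between groups. Each of these 3 differences had an exact two-sided permutation p of 0.1, the smallest that 3 against 3 samples allow, and 0.2 after adjustment over the 6 pairs. The ratio of TPM2 to TPM3 differed by 0.32 and that of TPM3 to TPM4 by -0.18 (exact permutation p = 0.2, adjusted 0.24). The ratio of TPM2 to TPM4 differed by 0.14 (exact permutation p = 0.9). A response of TPM1 unlike that of the others therefore did not pass this test, which could not pass with 3 samples a group.

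Levels can be compared between genes only per length, and here the order depended on which length was used. In FPKM, control means were 85.4 ± 8.83 for TPM2, 79.4 ± 7.54 for TPM4, 37.3 ± 0.833 for TPM3 and 24.9 ± 0.800 for TPM1 (SD, n = 3). TPM2 and TPM4 overlapped (77.4 to 94.8 and 71.9 to 87.0 FPKM), whereas TPM3 and TPM1 were separate from both and from each other. With TGF-β1 the means were 101 ± 18.7 FPKM for TPM2, 84.3 ± 4.42 for TPM4, 45.3 ± 9.18 for TPM1 and 34.9 ± 1.69 for TPM3. TPM1 and TPM3 thus changed places: TPM1 samples were at 24.1 to 25.6 FPKM against 36.5 to 38.1 for TPM3 in controls, and at 37.9 to 55.6 against 33.2 to 36.6 with TGF-β1.

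The lengths behind these FPKM values, recovered from counts and FPKM, were 13765 bases for TPM1, 3183 for TPM2, 15156 for TPM3 and 12376 for TPM4. The median lengths of their CCDS transcripts were 1104.5, 1183, 1647 and 2473 bases. On this second scale, control means per kilobase were 397 ± 37.7 CPM for TPM4, 343 ± 7.67 for TPM3, 311 ± 9.97 for TPM1 and 230 ± 23.8 for TPM2. With TGF-β1 TPM1 came first, at 564 ± 114 CPM per kilobase (472.9 to 693), followed by TPM4 at 422 ± 22.1, TPM3 at 321 ± 15.5 and TPM2 at 271 ± 50.4. TPM2 thus had the highest mean on the first scale and the lowest on the second. TPM1 was below TPM3 in all controls and above it in all TGF-β1 samples on both scales. Neither scale knows which transcripts were present.

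**Figure D2:**
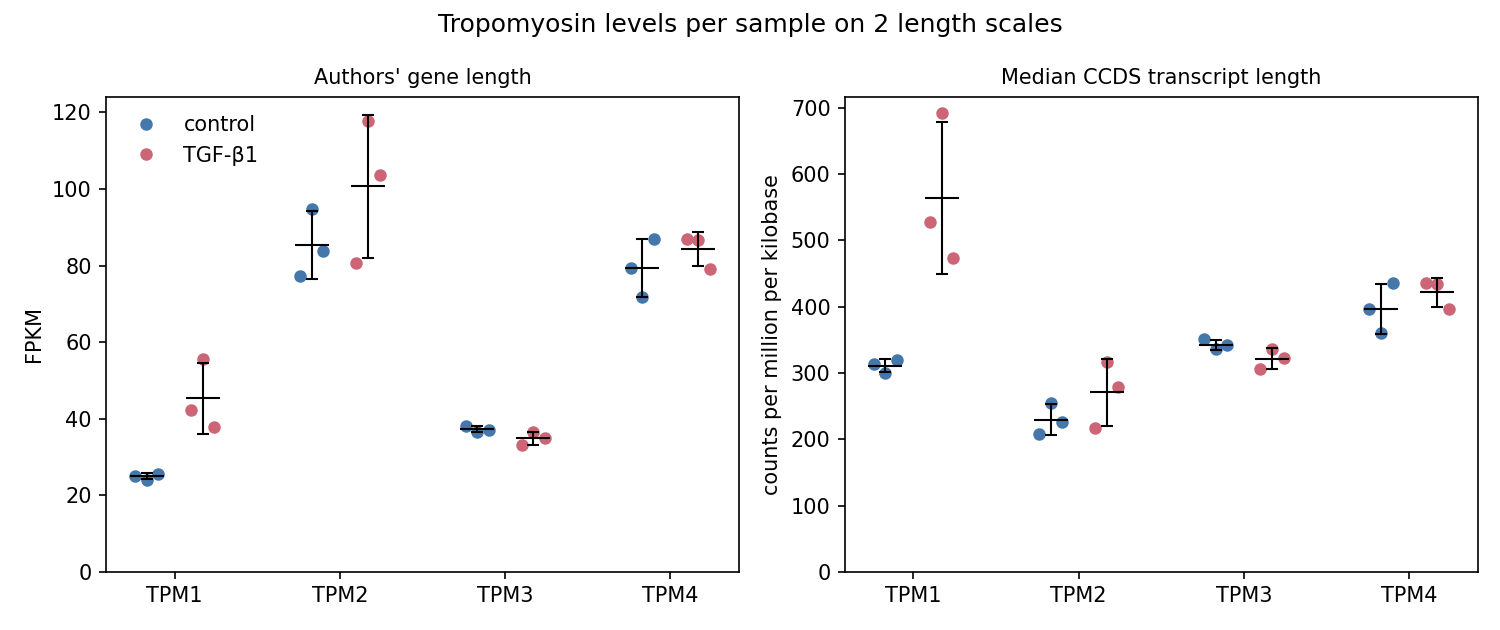
Level of each tropomyosin gene in FPKM with the authors' gene length (left) and in CPM per kilobase of median CCDS transcript length (right). Points are single samples, blue for control and red for TGF-β1, and bars are the mean ± SD of 3. The place of TPM1 against TPM3 changes between groups on both scales, and TPM2 has the highest mean on the left and the lowest on the right.

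The make-up of the tropomyosin pool was read as each gene's share of the summed level of the 4. By FPKM, TPM1 made up 10.6% to 11.4% in controls and 14.8% to 18.7% with TGF-β1, with no overlap. TPM3 went from 15.9% to 17.3% in controls to 12.3% to 13.7%, while the ranges of TPM2 (35.2% to 41.7% and 33.2% to 40.5%) and TPM4 (31.6% to 37.2% and 29.2% to 35.8%) overlapped. By CCDS transcript length, TPM1 made up 24.0% to 24.7% in controls and 32.2% to 38.9% with TGF-β1. Summed FPKM was 227 ± 6.86 in controls and 265 ± 28.0 with TGF-β1 (SD, n = 3). These shares are a description with no test.

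**Figure D3:**
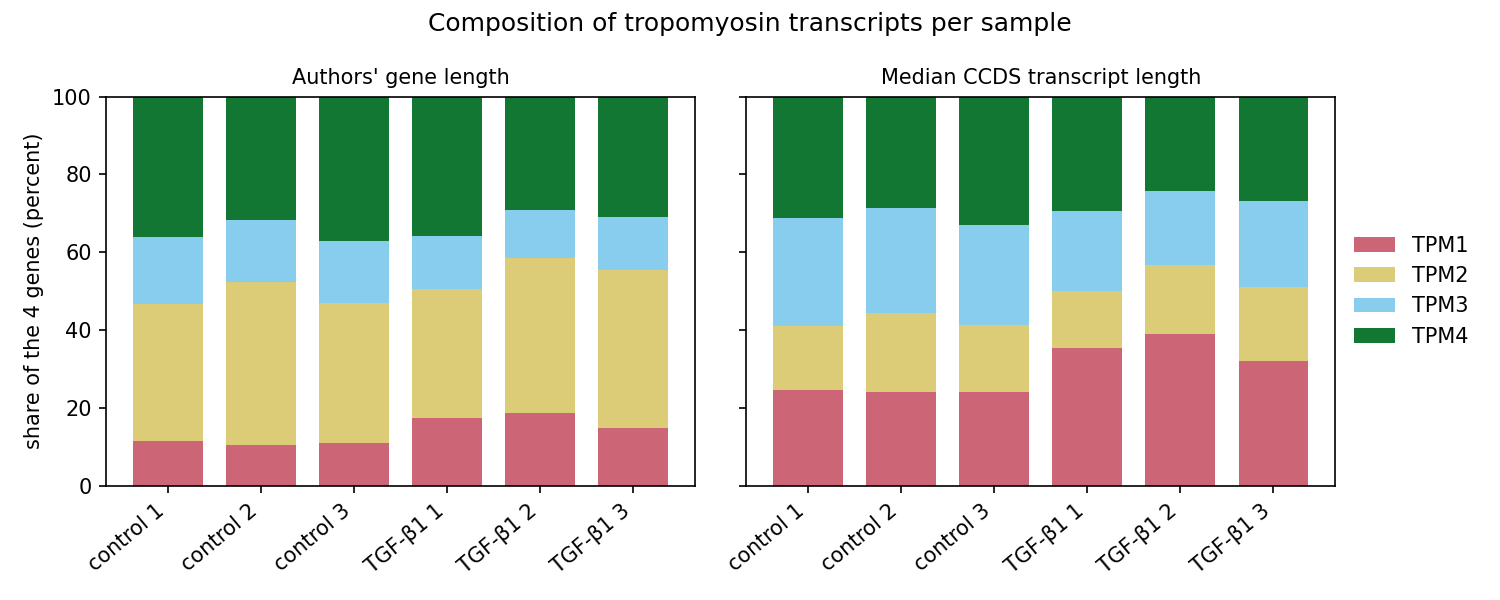
Share of each tropomyosin gene in the summed level of the 4 genes, in percent, for each sample, with the authors' gene length (left) and the median CCDS transcript length (right). The TPM1 share is 10.6% to 11.4% in controls and 14.8% to 18.7% with TGF-β1 on the left, and 24.0% to 24.7% and 32.2% to 38.9% on the right.

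The genes whose pattern over the 6 libraries was closest to that of each member were found by the root mean square distance between centred log2 CPM values. For TPM1 these were COL4A1 (distance 0.10), a basement membrane collagen chain, SOX4 (0.12), a transcription factor, and PODXL (0.12), a cell surface sialomucin. COL4A1 (edgeR adjusted p = 0.0202) and PODXL (0.0314) were called higher, and SOX4 was not (0.0778). The closest genes were LAMTOR2, METRNL and WNT5B for TPM2, FAM104A, PTGR1 and H3-3B for TPM3 and UBE3D, SRD5A1 and ZNF706 for TPM4. Their distances were 0.01 to 0.04, and none of them was called. All these genes were picked for likeness over the same 6 libraries. Whether they were called thus follows largely from that choice and is no separate evidence.

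Partner genes of tropomyosin on the actin filament were looked up in 7 lists, which held 45 tested genes. Of these, 1 rose and none fell by edgeR, against 0.366% called among all genes, and 12 had an unadjusted p under 0.05, against 15.6% of all genes. Calls numbered 3 without TGF-β1 replicate 1, where 2.2% of all genes were called, and 11 without TGF-β1 replicate 3, where 11.2% were. The gene that rose was TAGLN, which encodes transgelin, an actin-binding protein of smooth muscle. It was at 14.3, 15.1 and 15.0 FPKM in controls 1 to 3 and at 37.5, 53.2 and 49.3 with TGF-β1, a log2 difference of 1.64 ± 0.15 (SE; edgeR adjusted p = 0.000682), and it was called in all 24 alternatives. The median log2 difference over the 45 genes was -0.01, against 0.01 over all genes tested.

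Actin itself was the most abundant partner. ACTB, cytoplasmic beta-actin, had 1265 ± 25.2 and 1242 ± 168 FPKM (edgeR adjusted p = 0.892). ACTG1, cytoplasmic gamma-actin, had 1453 ± 72.4 and 1131 ± 161 FPKM, which differ by -0.38 ± 0.14 (SE) in log2 units (edgeR adjusted p = 0.214). None of the 5 tested actin genes was called, with the muscle isoforms ACTG2 at 3.41 and 3.52 FPKM and ACTA2 at 1.67 and 1.60 FPKM. None of the 3 tested tropomodulins, which cap the pointed end of tropomyosin-coated filaments, was called. Of these TMOD3 was at 5.91 and 8.18 FPKM, TMOD1 at 1.65 and 1.74 and TMOD2 at 0.322 and 0.631.

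None of the 9 myosin II chains and kinase genes was called. MYL9, a regulatory light chain, had 158 ± 18.8 and 216 ± 33.3 FPKM (edgeR adjusted p = 0.205), and its log2 difference of 0.54 after GC correction was called (edgeR adjusted p = 0.00874), as were 3.34% of all genes in that fit. MYH9, the main non-muscle heavy chain, had 368 ± 22.7 and 327 ± 25.1 FPKM (edgeR adjusted p = 0.485), and MYL12B had 249 and 277 FPKM. Among 6 tested caldesmon, calponin and transgelin genes only TAGLN was called by edgeR. CALD1, caldesmon, which binds actin together with tropomyosin, is named here after its values were seen. It was at 9.44, 6.39 and 9.41 FPKM in controls 1 to 3 and at 25.0, 20.3 and 12.0 with TGF-β1, with no overlap. Its log2 difference of 1.16 ± 0.23 (SE) missed the threshold (edgeR adjusted p = 0.0686) and was 0.89 with the GC trend removed, where it was called (edgeR adjusted p = 0.00167). TAGLN2 was at 529 and 642 FPKM, CNN3 at 95.5 and 96.0 and CNN2 at 62.0 and 56.9.

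**Figure D4:**
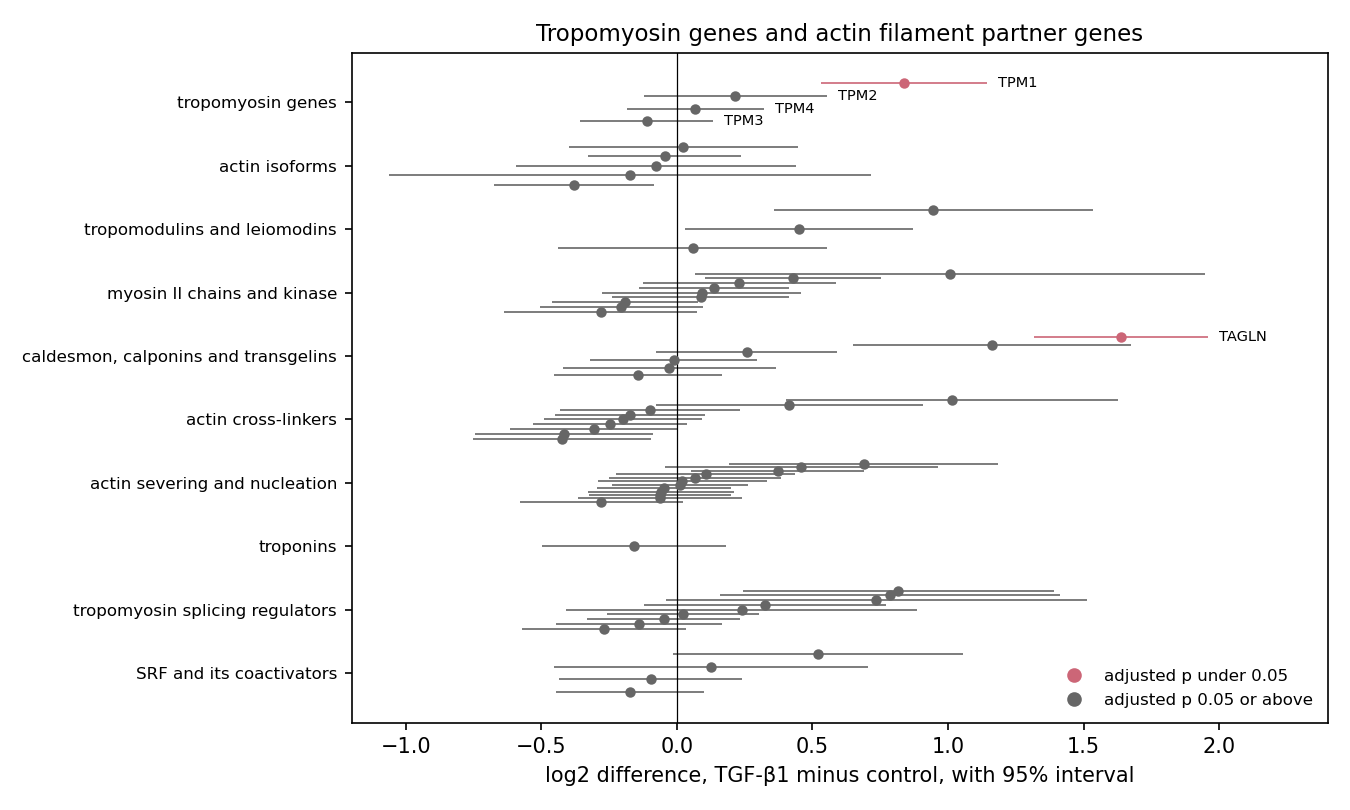
Log2 difference between TGF-β1 and control samples (horizontal axis) with its 95% interval for each tested tropomyosin and partner gene, by list (vertical axis). Red marks an edgeR adjusted p under 0.05, which TPM1 (0.84) and TAGLN (1.64) reached.

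No member was called among 9 tested actin cross-linkers, with a median log2 difference of -0.20, or among 12 severing and nucleation genes, with 0.02. FLNA, filamin A, had 431 ± 36.5 and 353 ± 48.3 FPKM (edgeR adjusted p = 0.320), and the alpha-actinin genes ACTN4 and ACTN1 had 244 and 215, and 131 and 117 FPKM. The severing proteins CFL1 and DSTN, which compete with tropomyosin on the filament, were at 189 and 206, and at 77.3 and 75.04 FPKM, and the formin gene DIAPH1 was at 60.8 and 59.1. Of 5 troponin genes in the table, 4 had at most 6 counts in any library. TNNT1, slow skeletal troponin T, was the exception, at 66.2 ± 10.3 and 60.2 ± 8.01 FPKM (edgeR adjusted p = 0.658).

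Regulators of tropomyosin genes and of their splicing were also read. None of 9 tested splicing factors was called by edgeR. Their median log2 difference was 0.24, against 0.01 over all genes tested. An unadjusted edgeR p under 0.05 was found for 2 of them, against 15.6% of all genes. These 2 are MBNL1 and MBNL2, muscleblind proteins that favour adult muscle splicing patterns, and they are named after their values were seen. MBNL1 was at 3.46 and 6.05 FPKM (log2 difference 0.78 ± 0.29 SE, edgeR adjusted p = 0.224) and MBNL2 at 2.46 and 4.40 FPKM (0.82 ± 0.26, adjusted p = 0.183), and each was called in 3 of 24 alternatives. PTBP2, chosen in the same way, had a log2 difference of 0.74 ± 0.35 (SE, edgeR adjusted p = 0.342) and was called in 2 of 24 alternatives. With the GC trend removed these log2 differences were smaller, at 0.41 for MBNL1, 0.32 for MBNL2 and 0.17 for PTBP2. All other tested splicing factors had negative log2 differences in that fit, from -0.23 for RBPMS to -0.02 for RBM4. No splicing factor was called there. PTBP1, which represses muscle exons of tropomyosin transcripts, had 90.7 ± 5.62 and 83.4 ± 12.0 FPKM (edgeR adjusted p = 0.668), RBFOX2 had 15.3 and 15.7 and CELF1 had 14.4 and 14.1. The epithelial splicing factors ESRP1 and ESRP2 were near the floor, with 0 to 3 and 4 to 10 counts per library. None of the 4 genes for serum response factor and its coactivators was called by edgeR, and none had an unadjusted p under 0.05. DESeq2 called 1 gene of the splicing and serum response factor lists together, among 590 calls over all genes. The fit with no filter called 3, where 4.46% of all genes were called. Without TGF-β1 replicate 3 there were also 3, where 11.2% of all genes were called. With the GC trend also removed there was 1, among 1512 calls over all genes. The other alternatives called none of these regulators. SRF had 26.0 and 23.4 FPKM, MRTFA 7.60 and 7.20 and MRTFB 1.05 and 1.52.

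Serum response factor binds the CArG box, a motif known from many promoters of contractile genes, so the 250 bases before each RefSeq start of the 4 genes (build GRCh38.p14) were searched on both strands. The table held 1 start for TPM1, near the short-form transcript printed above, 2 each for TPM2 and TPM3 and 3 for TPM4. Starts of the long-form CCDS transcripts of TPM1, at 63042632 to 63042770, and of TPM3, at 154192211, were not among them. The bases before those long-form starts were therefore not searched. A CArG box stood in 1 of the 8 windows, that of the most upstream TPM4 start, against 1.17% of all 34788 windows of that length. It began 173 bases before the start, at chr19:16067335-16067404 on the plus strand with 30 bases on each side, inside the TPM4 gene as annotated but outside its exons, and is given in capitals.
TPM4 CArG: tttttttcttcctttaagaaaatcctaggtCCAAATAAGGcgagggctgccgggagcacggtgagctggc
CAGAC, a SMAD-binding motif, stood once in the TPM1 window, 101 bases before the start on the minus strand, and in 38% of all windows. This TPM1 match lies within annotated exon sequence of TPM1-AS. CATTCC, the motif of TEAD factors, stood in none of the 8 windows and in 11.9% of all. Matches are a description of letters in these windows, and binding was not measured.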

How the data were processed

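RNA was extracted with Trizol and sequenced from libraries of the NEBNext Ultra RNA kit, per the labels' protocols. HISAT2, GRCh38 and HTSeq (0.13.5) are listed in the submitters' processing notes, with no role or order. No source used here gives the annotation release or the read length. Per the file headers, the deposited table holds a read count and an FPKM value per gene and sample. FPKM followed from the counts in all 17153 genes with counts in every library, with 1 whole-number gene length per gene (tolerance 0.5 bases).

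The deposited counts of all genes entered edgeR 4.0.16 under R 4.3.3 (quasi-likelihood F test, robust fitting, TMM scaling, filterByExpr), which kept 14463 of 27830 genes. A gene was called at a Benjamini-Hochberg adjusted p under 0.05. CPM uses TMM-scaled library sizes, but total counts for marker sums and levels per transcript length. On simulated counts for these 14463 genes the test recovered 20.9% of 1.5-fold, 67.2% of 2-fold and 93.9% of 4-fold changes. Of its calls there, 3.97% were unchanged genes. Whether these rates hold for the measured libraries, which a trend with GC content also set apart, was not tested. Same-group libraries differed by more than counting noise (chi-square 4.86 to 41.1 per degree of freedom).

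Alternatives were other scaling factors, no filter and 1 CPM in 3 samples, DESeq2 1.42.0, limma 3.58.1 (voom, or log2(FPKM + 1) and log2(FPKM + 0.1)), the replicate number as a block, removal of a loess trend (span 0.5) on GC content of the longest GENCODE 29 transcript, and each sample left out. Levels by CCDS transcript length, and ratios of members with a sample left out or the GC trend removed, were added after seeing the data. The members, gene lists and alternatives were chosen with earlier results of these data known. Named are the 4 members, called partners, up to 3 uncalled partners per list with the highest mean FPKM, and per member the 3 nearest genes with a symbol and a mean of at least 5 CPM. Antisense genes and pseudogenes named after a member were also included. ACTA2, CALD1, MBNL1, MBNL2, PTBP2, the marker genes, ESRP1 and ESRP2 were named after their values were seen.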

Additional observations from a re-analysis of the deposited data

How the results depend on the processing

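TPM1 kept its direction in all 24 alternatives and was called in 18. The other members were read in 18 alternatives. Among members, fits with both the GC trend removed and 1 sample left out were read for TPM1 only, and all of those called it. TPM2 and TPM3 kept their direction in all 18 of their alternatives, and TPM4 in 17. TPM1 was not called by limma on log2(FPKM + 1) (log2 difference 0.82, adjusted p = 0.0997) or log2(FPKM + 0.1) (0.84, 0.153), nor without 1 of 4 samples, and its log2 difference was 0.68 to 0.93 with 1 sample left out. TPM4 had -0.0098 without control replicate 2 and up to 0.12 otherwise. The 53 calls among all genes (27 higher, 26 lower, 1 among 58 filament partner and regulator genes) became 111 (57, 54, 2) with upper quartile factors, 1240 (1071, 169, 9) with no filter, 590 (457, 133, 3) with DESeq2, 21 (12, 9) with log2(FPKM + 1) and 13 (11, 2) with log2(FPKM + 0.1). They became 483 (245, 238, 3) with the GC trend removed and 490 (248, 242, 3) with that removal and the replicate block. Leaving out 1 sample gave between 4 and 1671 calls (4 to 1374 up, 0 to 297 down), of which 1 to 14 were partner or regulator genes. After GC correction, calls numbered 116, 189 and 412 without control replicates 1 to 3, and 354, 97 and 1512 without TGF-β1 replicates 1 to 3. What causes these shifts was not tested.

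A replicate block raised the calls to 527, with 429 higher, 98 lower and 2 partner or regulator genes, and put TPM1 at 0.82 (edgeR adjusted p = 0.00355). Pairing was checked by correlating deviations within each number, which gave 0.18, 0.10 and -0.35, and the numbers were not taken to pair the samples. Levels per length on the CCDS scale stand beside the FPKM values above. Depth did not limit the members, whose lowest count was 3477. TPM1-AS and TPM3P6 were too low to be tested, and 58 of the 69 partner and regulator genes in the table passed the filter on low counts.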
